A study of Drosophila melanogaster with 3 samples.

Results

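The peaks described here lay in introns near a transcription start site (TSS) and come from chromatin immunoprecipitation and sequencing (ChIP-seq) of HLHm7, encoded by E(spl)m7-HLH, in Drosophila melanogaster embryos. They are the peaks of the authors' optimal set on the dm6 build whose summit was 501 to 5000 bp from the nearest protein-coding TSS, inside a protein-coding gene and in no exon of one. The rule used positions alone, and it kept 615 of the 2397 optimal peaks (25.7%), which are called near-start intron peaks below. The optimal set also held 1072 promoter peaks with a summit within 500 bp of a TSS, 298 intron peaks farther than 5000 bp from a TSS, 365 intergenic peaks and 47 exon peaks. The material was whole embryos of pooled sex, 0 to 16 h of age, in which a stably inserted transgene gives HLHm7 a C-terminal eGFP. An anti-GFP antibody was used for the precipitation in 3 biological replicates of this 1 line, and every list was called against the same control alignment, which was not analysed here. There was no other group, such as embryos without the tag. A whole embryo mixes all cell types and stages of that period, so a peak cannot be assigned to a tissue, and binding in few cells cannot be told apart from weak binding in many. Each list held 30000 regions, and the optimal peaks had the highest signals of the pooled one. The authors name the pooled list as peaks and background. Its regions outside the optimal set, called weaker regions below, therefore include background and are not a set of weaker binding alone. The depth is unknown, and signal, the authors' own value per region with no stated scale, was used only to rank regions within a list. Peaks are not independent replicates, and the tests and 95% Wilson intervals below cover counting error only.

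HLHm7 belongs to the basic helix-loop-helix-orange repressors of the Enhancer of split complex, which Notch signalling switches on and which recruit the corepressor Groucho. Proteins of this family bind E-box and N-box hexamers, and short regulatory elements that such factors occupy often lie in introns.

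The bases within 100 bp of the summit are shown for the strongest near-start intron peaks found among the top regions of every replicate, so that the base composition and the words described below can be seen in place. All are on the plus strand of dm6 (RefSeq genome sequence), with the summit at the middle base, and capitals mark the word CACTG on either strand. Sequences here and below are from 2L, 3L, 3R and X only.

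ush, chr2L:480981-481181: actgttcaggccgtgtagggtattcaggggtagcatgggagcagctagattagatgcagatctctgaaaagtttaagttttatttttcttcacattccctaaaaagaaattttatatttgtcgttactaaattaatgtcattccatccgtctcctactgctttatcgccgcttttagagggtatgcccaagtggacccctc
Lk6, chr3R:11760957-11761157: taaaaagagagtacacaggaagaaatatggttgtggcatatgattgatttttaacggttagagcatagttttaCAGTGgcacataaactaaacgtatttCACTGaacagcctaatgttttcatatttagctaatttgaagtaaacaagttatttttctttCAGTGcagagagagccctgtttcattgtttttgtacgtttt
CG11050, chr2L:6612625-6612825: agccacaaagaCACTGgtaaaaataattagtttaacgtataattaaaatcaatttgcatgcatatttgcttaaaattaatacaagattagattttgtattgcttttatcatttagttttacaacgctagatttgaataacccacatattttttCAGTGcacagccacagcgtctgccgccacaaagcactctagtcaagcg
cno, chr3R:5215434-5215634: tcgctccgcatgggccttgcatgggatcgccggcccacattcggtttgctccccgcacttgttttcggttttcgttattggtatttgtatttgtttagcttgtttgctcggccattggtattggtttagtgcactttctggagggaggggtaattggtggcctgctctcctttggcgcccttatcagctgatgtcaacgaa
CG32772, chrX:4910276-4910476: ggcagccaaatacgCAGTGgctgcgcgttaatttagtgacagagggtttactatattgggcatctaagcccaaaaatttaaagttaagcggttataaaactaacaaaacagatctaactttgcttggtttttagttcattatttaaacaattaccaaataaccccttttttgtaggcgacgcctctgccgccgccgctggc
CG9663, chr2L:3302079-3302279: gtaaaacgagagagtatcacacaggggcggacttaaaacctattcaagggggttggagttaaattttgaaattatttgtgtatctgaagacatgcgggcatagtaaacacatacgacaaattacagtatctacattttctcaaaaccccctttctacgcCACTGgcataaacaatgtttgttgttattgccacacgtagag
Raf, chrX:2297636-2297836: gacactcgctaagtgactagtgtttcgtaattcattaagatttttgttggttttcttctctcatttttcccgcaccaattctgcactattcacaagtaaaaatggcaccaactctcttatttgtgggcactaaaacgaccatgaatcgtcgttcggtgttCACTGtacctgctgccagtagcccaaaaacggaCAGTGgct
Tlk, chrX:3742142-3742342: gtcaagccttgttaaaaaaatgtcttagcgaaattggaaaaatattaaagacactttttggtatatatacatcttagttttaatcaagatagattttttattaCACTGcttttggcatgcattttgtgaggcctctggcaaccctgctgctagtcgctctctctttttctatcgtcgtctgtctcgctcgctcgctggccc

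Of these 8 windows, 6 hold the word at least once. Some near-start intron peaks held longer forms of the word. The 40-base stretches below, in the orientation of the word, come from the peaks of highest signal that hold CACTGAGA within 150 bp of the summit, with that word in capitals. They were chosen after the word counts were seen.

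ush, chr2L:485731-485770, minus strand: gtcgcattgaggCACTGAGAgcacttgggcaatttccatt
ImpL2, chr3L:4228294-4228333, plus strand: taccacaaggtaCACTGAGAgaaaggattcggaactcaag
bves, chrX:21059090-21059129, plus strand: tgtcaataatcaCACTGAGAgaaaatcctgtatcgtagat
Tmhs, chr3L:1886298-1886337, minus strand: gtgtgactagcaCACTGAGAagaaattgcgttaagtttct
ImpL2, chr3L:4230390-4230429, plus strand: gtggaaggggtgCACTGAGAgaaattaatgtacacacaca
CG1943, chr3R:7075756-7075795, plus strand: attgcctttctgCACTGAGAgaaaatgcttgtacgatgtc

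The next stretches hold CACTGTGC, again in capitals and in the orientation of the word, and were chosen in the same way.

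CG31635, chr2L:6647089-6647128, minus strand: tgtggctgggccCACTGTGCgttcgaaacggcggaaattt
Trl, chr3L:14759377-14759416, minus strand: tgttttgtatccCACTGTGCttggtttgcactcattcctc
SCaMC, chr3L:12407257-12407296, plus strand: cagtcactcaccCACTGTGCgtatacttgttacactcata
Csk, chr3R:11649715-11649754, plus strand: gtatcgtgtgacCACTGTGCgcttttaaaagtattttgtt

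The strongest near-start intron peak lay in ush, a gene for a cofactor of GATA factors, 1393 bp upstream of the TSS of cbt, a zinc finger gene. It had a signal of 1506 and ranked 2, 2 and 5 in replicates 1, 2 and 3, and its summits in the replicates lay up to 13 bp from the pooled one. The peak in Lk6, which encodes a kinase of the translation factor eIF4E, followed with a signal of 1115 and ranks of 15, 7 and 16. The peak in CG11050 ranked 14, 18 and 10. The peak in cno, which encodes the adherens junction protein Canoe, ranked 20, 17 and 41. The replicates thus placed these 4 peaks at ranks from 2 to 41.

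The next peaks by signal were in CG32772 (772), CG9663 (770), the neighbouring genes HmgD and HmgZ (758), which encode HMG-box chromosomal proteins, and Raf (708), which encodes the kinase that Ras activates. Raf ranked 63, 32 and 36 in the replicates. Peaks in Tlk, a kinase gene of chromatin assembly (683), InR, the insulin receptor gene (669), and NFAT, a transcription factor gene (622), came next. The peak in NFAT ranked 54, 56 and 53. The peak in CG9837 had the ranks 118, 68 and 31, and the peak shared by chif and Hyls1 had 142, 112 and 45. The remaining peaks of this set lay in CG31635, Reph, CG3726, Trl, which encodes GAGA factor, wde, which encodes a cofactor of an H3K9 methyltransferase, Adf1, and again in ush. Of the 20 strongest peaks with a top region in every replicate, 17 lay in an intron after a first exon, 19 were inside the gene with the nearest TSS, and 3 had a further peak at that TSS. Over all 615 near-start intron peaks these shares were 78.7%, 87.2% and 12.7%, so the counts mark no trait of the strongest peaks.

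**Figure D1:**
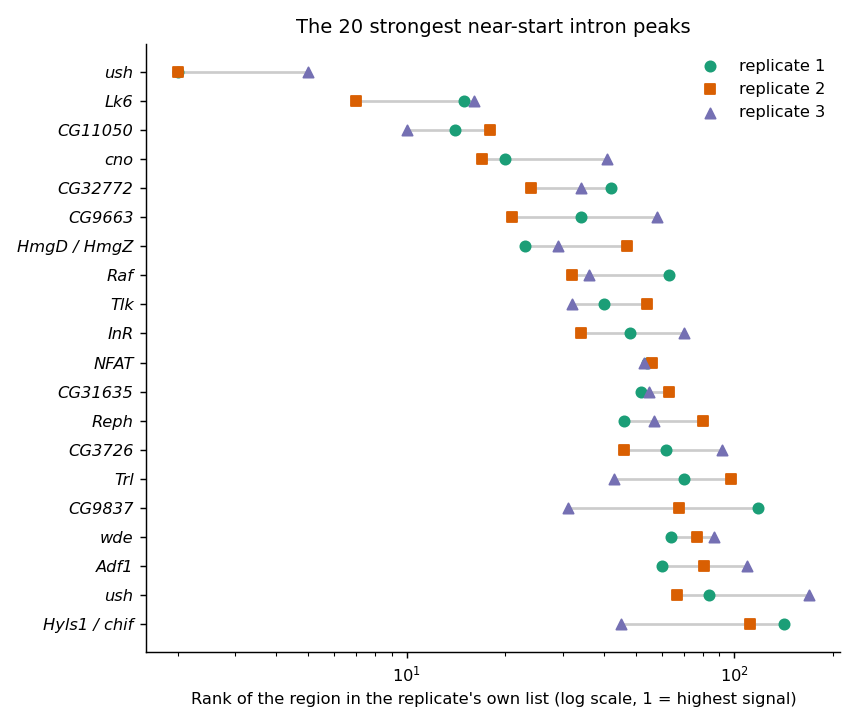
Ranks of the 20 strongest near-start intron peaks with a top region in every replicate, in the list of each replicate (horizontal, log scale), with the genes that hold them on the vertical axis in order of pooled signal. No peak of the set ranked lower than 142, 112 and 169 in replicates 1, 2 and 3.

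Near-start intron peaks made up a larger share of the optimal set than of the weaker regions. They were 25.7% of the optimal peaks (interval 23.9 to 27.4%), against 4631 of the 27603 weaker pooled regions (16.8%, 16.3 to 17.2%; odds ratio 1.71, two-sided Fisher's exact p = 1.04e-25). The eligible sequence was 22419345 bp, 16.7% of the arms, close to the share of the weaker regions, which include background. Among the 2397 strongest regions of each replicate the share was 24.0%, 25.6% and 25.7% in replicates 1, 2 and 3, or 25.1% ± 0.952 (SD, n = 3). Within the pooled list the share was 26.6% at ranks 1 to 500, 22.7% at ranks 2398 to 5000 and 15.1% at ranks 15001 to 20000. The share was thus lower in these ranks beyond the optimal set. In the same ranks promoter regions went from 51.0% to 34.3% and 17.7%, and exon regions from 1.60% to 11.7% and 30.1%. Shares of classes depend on one another, so the lower share came with many more exon regions in the weaker list. A lower share there was not particular to near-start intron peaks.

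By signal and by replicate support no difference between near-start intron peaks and the other classes passed the threshold of 0.05. A top region in all 3 replicates, one of the 2397 strongest with a summit within 200 bp, was found for 364 of the 615 peaks (59.2%, 55.3 to 63.0%). The share over all optimal peaks was 59.9%, so this count is near the background. It was 61.9% for promoter, 55.0% for far intron and 60.5% for intergenic peaks, with adjusted exact p of 0.415, 0.415 and 0.687 (two-sided Fisher's tests). Without replicate 2 the share was 5.90 percentage points below that of promoters, which passed (adjusted exact p = 0.0444), and without replicate 1 it was 0.145 points above. Replicate 1 held 471 of the peaks in its top list (76.6%), replicate 2 held 524 (85.2%) and replicate 3 held 490 (79.7%). Over all optimal peaks these shares were 80.4%, 84.1% and 79.4%. In the full lists 601 peaks (97.7%) had a region in every replicate, with a median summit shift of 12 bp. The values over all optimal peaks were nearly the same, 97.4% and 12 bp. Signal above the median of the optimal set was found for 309 peaks (50.2%), against 52.1% of promoter, 45.6% of far intron and 47.1% of intergenic peaks (adjusted exact p = 0.479 for each). The median signal was 143, with a range of 90.6 to 1506.

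Widths were nearly constant, with 549 of the 615 peaks at exactly 384 bp, 66 narrower (10.7%) and 0 of 615 wider, and a count of 0 allows a share of up to 0.488% (3 counts of the total). The share of narrow peaks was higher than among far intron peaks (5.37%, adjusted exact p = 0.0273) and did not pass against promoter (12.2%) or intergenic peaks (12.6%; adjusted exact p = 0.406 for both). Narrow widths were found mostly among the peaks of highest signal, so width is not a trait separate from signal. Of near-start intron peaks 4.39% were among the 100 strongest optimal peaks, and of far intron peaks 1.34%. The part of signal in the width difference was not tested. This width comparison was added after the widths were seen. Without replicate 3 the difference from far intron peaks was 7.06 points, against 5.36 points with all 3, but did not pass (adjusted exact p = 0.0599).

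The nearest promoter was itself bound more often than beside intergenic peaks. A further optimal summit within 500 bp of the nearest TSS was found for 78 of the 615 peaks (12.7%, 10.3 to 15.5%), against 5.48% of intergenic peaks (odds ratio 2.51, adjusted exact p = 4.89e-04) and 9.40% of far intron peaks (adjusted exact p = 0.154). Among all 13945 protein-coding genes, 10.3% had an optimal summit within 500 bp of a TSS, which is the lower bound of the interval for near-start intron peaks. That share counts genes with a summit at any of their TSSs. The 12.7% counts peaks with a further summit at the nearest TSS alone, so the measures differ. Without replicate 3 the difference from intergenic peaks was 4.25 points and did not pass (adjusted exact p = 0.139), and without replicates 1 or 2 it was at most 5.21 points.

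**Figure D2:**
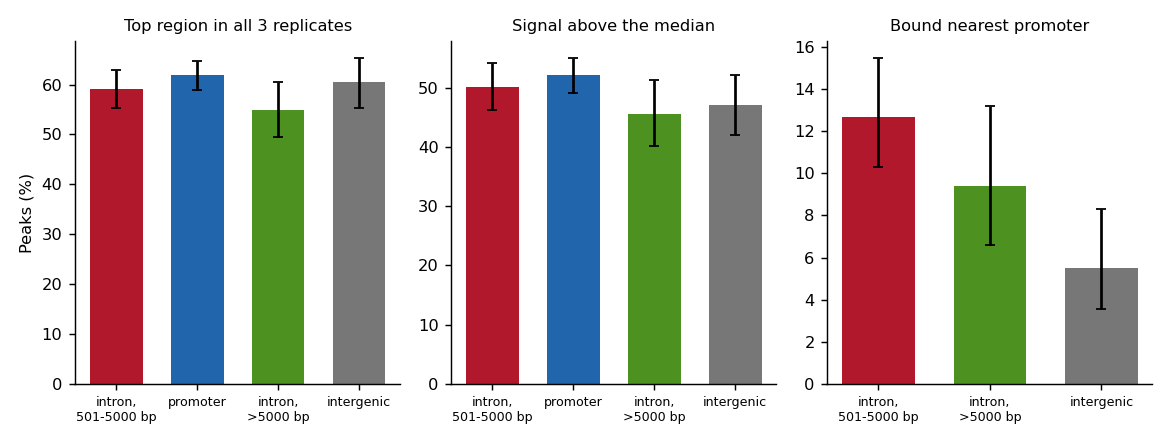
Share of peaks (vertical axis, %) with a top region in all 3 replicates, with signal above the median of the optimal set, and with a further peak at the nearest TSS, for near-start intron peaks and the other classes. Bars are shares and error bars 95% Wilson intervals. The near-start intron bars stand at 59.2%, 50.2% and 12.7%, and the intergenic bar for the nearest promoter is lower, at 5.48%.

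Within eligible intron sequence, the peaks concentrated close to the 501 bp limit and in introns that follow a first exon. The band from 501 to 1000 bp held 173 peaks (28.1%, 24.7 to 31.8%) but 17.8% of the eligible sequence (two-sided exact binomial test, adjusted p = 8.14e-10). That is 43.5 peaks per Mb, against 27.4 per Mb over all eligible sequence. The density was 29.8 per Mb in both of the next bands of 500 bp, and lay between 17.0 and 25.2 per Mb in each band beyond 2000 bp. Weaker regions of the pooled list that met the rule had 240 per Mb from 501 to 1000 bp and 176 to 225 per Mb in the bands beyond. The share with a top region in all 3 replicates was 61.3% in the nearest band and 59.4% in the farthest, and the median distance was 1689 bp, against 2159 bp for eligible bases. Introns after a first exon held 484 peaks (78.7%) and 58.9% of the eligible sequence (adjusted exact p = 3.80e-24). The gene of the nearest TSS held 536 peaks within its own span (87.2% against 75.1%, adjusted exact p = 7.78e-13). Downstream of the nearest TSS lay 393 peaks (63.9% against 67.9%, adjusted exact p = 0.0571), which did not pass, although it did without replicate 1 (a difference of -5.02 points, adjusted exact p = 0.0486). The 3 positions that passed also passed with 1 peak per gene and, by smaller differences, in the weaker regions. These positions overlap and each was tested alone, so they are not 3 independent results. Of the weaker regions 20.6% lay at 501 to 1000 bp, 66.9% after a first exon and 79.3% inside the gene of the nearest TSS, against the same 17.8%, 58.9% and 75.1% of eligible sequence. The mappability of the intron sequence was not measured.

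**Figure D3:**
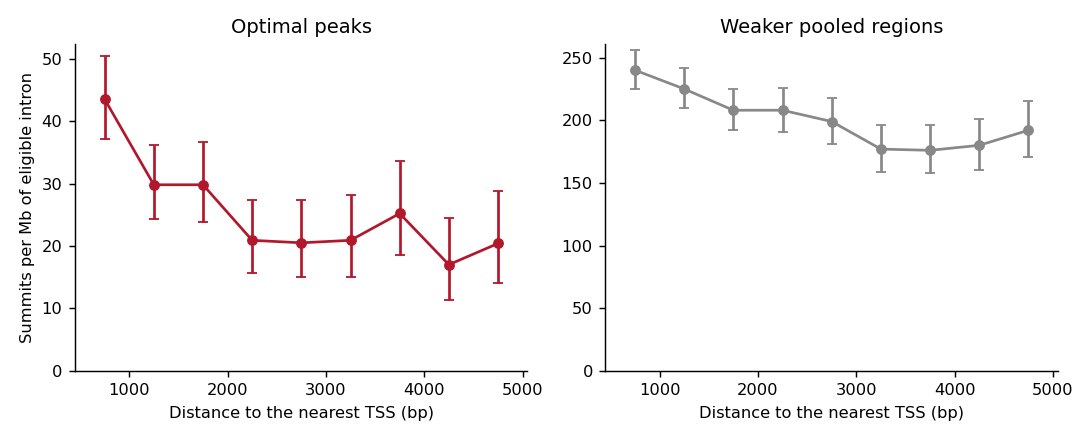
Summits per Mb of eligible intron (vertical axis) by distance to the nearest protein-coding TSS in bands of 500 bp, for near-start intron peaks of the optimal set and for weaker pooled regions that met the same rule; the vertical scales differ. Error bars are 95% Poisson intervals of the counts. The optimal peaks stand at 43.5 per Mb in the nearest band and between 17.0 and 25.2 per Mb beyond 2000 bp.

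The values of the peaks at the limits of the rule are given without a test. The members nearest the lower limit were at 501 bp, in RapGAP1 (signal 126; ranks 5150, 910 and 379 in replicates 1, 2 and 3) and in MESR3 (195; 967, 546 and 889). Just outside it lay intron peaks at 496 bp, shared by Ogdh and Cpr73D (108), and at 497 bp, in CG9171 (93.8). The members nearest the upper limit were at 4993 bp in Pdk (204) and at 4991 bp in Ac13E (162), and the next intron peaks beyond were at 5005 bp in sano (91.9) and 5013 bp in tara (238). The median signal was 143 for the 42 members up to 600 bp from a TSS and 147 for the 51 intron peaks up to 100 bp closer than the lower limit.

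By chromosome arm the X carried more of the peaks than its share of eligible sequence, 154 peaks, 4.98 points above its 20.1% (adjusted exact binomial p = 0.00500), and chromosome 4 carried 0 of 615, which by the same limit of 3 counts allows a share of up to 0.488%, against 1.22% of the eligible sequence (adjusted exact p = 0.00316). With 1 peak per gene the X share was 22.1% and did not pass (adjusted exact p = 0.535), and of the weaker regions 15.6% were on the X. The density on 2L, 2R, 3L and 3R was 23.2 to 27.2 per Mb of eligible intron, and none of these arms passed, although 2L did without replicate 3 (a difference of -4.58 points, adjusted exact p = 0.0217).

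The 615 peaks lay in 507 protein-coding genes, 3.64% of all 13945. Among these hosts 407 held 1 peak, 70 held 2 and 30 held 3 or more, and 45 peaks lay in overlapping genes and count for each of them. The most, 9, lay in CG1677, and all 9 had their nearest TSS in another gene, among them brk, which encodes a repressor of Dpp targets, and Dok, an adaptor protein gene. Their signals ran from 95.9 to 285. The gene shn, a zinc finger gene of Dpp signalling, held 7, all with the nearest TSS in shn itself and signals of 94.5 to 204. CHES-1-like, a forkhead gene, Svil, which encodes the actin-binding protein supervillin, and Tlk held 5 each. Genes with 4 included ush, Raf, NFAT, Evi5, tou and kirre, which encodes an adhesion protein of myoblast fusion. In Raf the 4 signals were 708, 150, 134 and 108, and in ush 1506, 498, 245 and 95.7, so in both genes 1 peak stood far above the others. Another optimal summit lay within 5000 bp of 292 peaks (47.5%) and within 1000 bp of 80. The same counts were not made for the other optimal peaks, so they show no clustering particular to this class. A pair of peaks in HmgZ shared the same interval and differed in summit.

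Most gene lists, and not the signalling lists alone, held more near-start intron peaks per Mb of eligible intron than protein-coding genes as a whole. This is a description without a test, and the lists were chosen with earlier results of these data known. Of all protein-coding genes 3.64% were hosts, with 27.4 peaks per Mb. Of 27 EGFR and receptor tyrosine kinase genes, 8 were hosts (29.6%), with 11 peaks or 66.1 per Mb. Besides InR these included aos, the EGFR inhibitor, whose peak 3084 bp downstream of the TSS had a signal of 392 and ranks of 158, 172 and 152 in replicates 1, 2 and 3. They also included S, which acts in ligand processing (311; ranks 231, 318 and 202), and the genes aop, drk, Pvr, sty and ths. Raf is not counted there, since it was listed under its older name phl. Of 30 Wnt, Hedgehog and Dpp genes 7 were hosts, with 13 peaks or 58.5 per Mb, 7 of them in shn. Mad, the transcription factor of Dpp signalling, had a peak 668 bp upstream of its nearest TSS (352; ranks 205, 152 and 218), and the others were fz, fz2, ptc, sgg and sog. Of the 19 matched Notch pathway genes 2 were hosts, at 22.8 per Mb, below the value over all genes. These were mam, a coactivator gene (204; ranks 829, 692 and 508), and neur, which encodes a ubiquitin ligase of Delta (166; 1271, 1181 and 577). In the JAK/STAT, Toll and stress kinase list kay, Socs36E and puc were hosts, with signals of 112 to 165 for their strongest peaks.

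Among chromatin and hormone response genes, of 23 Polycomb and trithorax group genes 6 were hosts (88.8 per Mb), with Trl first (573; ranks 70, 98 and 43), then the methyltransferase gene trx (254; 522, 664 and 175) and the chromodomain gene kis (236; 438, 437 and 592). Of 14 ecdysone response genes 6 were hosts (42.9%, against 3.64% of all genes), with 34.5 per Mb, led by the nuclear receptor genes Eip75B (236) and Hr3 (221). Of 10 clock genes listed, 9 matched and 3 were hosts (37.9 per Mb), Pdp1 (217), vri (99.8) and sgg (97.4). The peak in sgg was a top region in only 1 replicate. The cell death list had 75.2 per Mb from 1 peak. Its single host, Diap1 (171), ranked 13956 in replicate 1, against 488 and 584 in replicates 2 and 3.

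Tissue lists lay between 23.0 and 47.6 per Mb where they had a host. Of 20 mesoderm and muscle genes 4 were hosts (35.5 per Mb), kirre (357), zfh1 (262; ranks 601, 316 and 305), Mef2 and nau. Of 23 neuroectoderm, neuroblast and glia genes 4 were hosts (33.9 per Mb), led by the midline regulator sim (415; ranks 127, 135 and 129) and brat (310; 333, 295 and 176), followed by grh and loco. Of 16 trachea and epidermis genes 5 were hosts (46.7 per Mb), with sim and grh again and with rib (225). The 26 axon guidance and adhesion genes gave 23.0 per Mb, with cno first, then NetB (270), where the nearest TSS was that of hog, and sli (195). Of 14 GATA factor and blood cell genes ush alone was a host, with 4 peaks (47.6 per Mb). None of the 25 segmentation and Hox genes or of the 86 cytosolic ribosomal protein genes held a near-start intron peak, and these lists have 0.0953 and 0.0209 Mb of eligible intron, so few peaks could have been counted there.

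None of the E-boxes, N-boxes and other sites searched passed as more or less frequent at the summits than beside them. The 18 motifs were searched for on either strand within 100 bp of the 615 summits and in 1163 flanking windows of the same length centred 750 bp away, and 0 passed after adjustment (two-sided Fisher's exact tests). At an unadjusted p below 0.05 there were 3. These were the class C site CACGCG (2.11% at summits against 4.21% in flanks, exact p = 0.0210), the Su(H) site GTGGGAA (1.79% against 3.87%, exact p = 0.0154) and the GATA site GATAAG (13.0% against 9.89%, exact p = 0.0465). The E-box CACGTG was in 1.95% of summit windows and 2.58% of flanks, the N-box CACAAG in 9.27% and 8.34%, and the N-box CACGAG in 3.09% and 4.73%. The E-box CAGCTG was in 8.62% of summit windows and 7.82% of flanks, CACCTG in 7.32% and 6.28%, and CACATG in 8.62% and 10.9%. GC content was 37.3% ± 6.15 (SD over 615 windows) at the summits and 40.6% ± 8.19 (1163 windows) in the flanks, and its part in these values was not tested. The flanks, here and below, were not required to be intronic or away from a TSS. They can therefore hold exon or promoter sequence, and the part of this was not tested either.

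Against promoter peaks, 5 motifs were less frequent. The DNA replication-related element TATCGATA was in 0.163% of near-start intron windows and 7.46% of promoter windows (adjusted exact p = 1.65e-13), and Motif 1, GGTCACAC, in 0.488% and 3.64% (adjusted exact p = 3.84e-04). The ETS site CCGGAA (2.28% and 6.53%, adjusted exact p = 0.00113), the E-box CAGCTG (8.62% and 14.3%, adjusted exact p = 0.00873) and the class C site (2.11% and 4.94%, adjusted exact p = 0.0411) were lower as well. No motif passed against far intron or intergenic peaks. Without replicates 1, 2 or 3 the number of motifs lower than in promoters was 1, 1 and 3, with fewer peaks in each of these sets.

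When every word of 6 bases was counted in the same way, a search added after the data were seen, words built on CACTG stood first. Of 2080 words, 96 (4.62%) were more frequent at the summits and 76 (3.65%) less frequent (adjusted exact p below 0.05, with a word and its reverse complement counted as 1). The leading words were CACTGT (25.2% of summits against 9.20% of flanks, adjusted exact p = 2.40e-15), ACACTG (21.1% against 6.79%) and TACACT (in 129 summit windows and 84 flanks). Of the 8 words of 6 bases that contain CACTG, 7 were among the 96. Others were GTGCAC (11.2% against 3.10%) and GTGTAC (15.3% against 6.10%), neither of which contains CACTG, and words of A and T such as AAATAT (46.8% against 33.7%). The less frequent words were led by CGAGGA (0.976% against 5.76%) and CCGCCG (2.11% against 6.53%). With peaks within 1000 bp of a TSS left out, which kept 442 peaks, 35 words were higher and 16 lower. Without replicates 1, 2 and 3 the numbers of words higher were 73, 59 and 42, of which 58, 49 and 37 were among the 96, and the numbers lower were 58, 34 and 20.

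The core word CACTG itself lay within 100 bp of 347 of the 615 summits (56.4%, 52.5 to 60.3%) and in 329 of 1163 flanks (28.3%, 25.8 to 30.9%; odds ratio 3.28, exact p = 1.00e-30). It lay near 51.0% of all optimal summits. Written backwards, GTCAC, a word of the same composition, it was in 15.4% of summit windows and 17.1% of flanks (exact p = 0.384). Within 50 bp of the summit and of the middle of the flank the shares were 24.4% and 15.6%, a difference of 8.74 points. Since the word was chosen on these peaks, the first test has no independent standing, but the word was also more frequent in classes of peaks on which it was not chosen. The shares at summits and in flanks were 58.1% and 26.3% for far intron peaks (adjusted exact p = 9.91e-20), 50.7% and 27.5% for intergenic peaks (adjusted exact p = 1.26e-13), 46.4% and 32.1% for promoter peaks (adjusted exact p = 8.95e-15), and 38.2% and 29.0% for weaker near-start intron regions (adjusted exact p = 2.54e-25). The share at near-start intron summits was 10.1 points above that of promoter, 1.63 points below that of far intron and 5.74 points above that of intergenic peaks, which is a description without a test, since the word was chosen on the near-start intron peaks. At the summits of the replicates' own regions the share was 56.8%, 53.7% and 54.5% in replicates 1, 2 and 3, or 55.0% ± 1.61 (SD, n = 3), against 28.3% ± 0.534 in their flanks.

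Among the near-start intron peaks themselves, those with the word more often had a signal above the median. Signal above the median of the optimal set was found for 55.6% of the 347 peaks with the word and 43.3% of the 268 without it (odds ratio 1.64, adjusted exact p = 0.0105). A top region in all 3 replicates was found for 63.4% and 53.7% (adjusted exact p = 0.0331). In 4 groups of near equal size by signal, lowest first, the word was in 52.6%, 48.7%, 56.2% and 68.2% of peaks. No difference passed for a position within 1000 bp of the TSS (26.8% and 29.9%, adjusted exact p = 0.556) or for a bound nearest promoter (12.7% in both, adjusted exact p = 1.00). Of the 20 strongest peaks named above 9 held the word, and the top peak in ush held none within 100 bp.

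The word was densest to either side of the summit. Per peak and 50 bp bin there were 0.244 sites from 100 to 51 bp before the summit and 0.267 from 50 to 99 bp after it, against 0.135 and 0.150 in the bins that touch the summit. Farther than 200 bp out the bins held 0.0715 to 0.125 sites. The maxima on both sides were thus higher than the centre, and the level returned to that of the surroundings within about 200 bp. Far intron peaks had a similar profile, with maxima of 0.215 and 0.252, while promoter peaks held at most 0.177 per bin. These profiles were not tested.

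**Figure D4:**
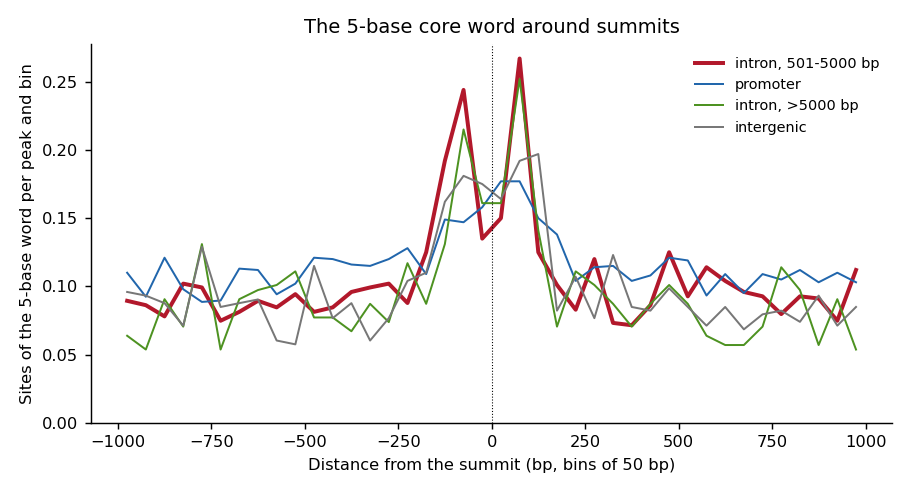
Sites of the core word CACTG, on either strand, per peak and 50 bp bin (vertical axis) by distance from the summit in bp, for near-start intron peaks and the other classes. For near-start intron peaks the line has maxima of 0.244 and 0.267 on either side of the summit and 0.135 and 0.150 in the bins that touch it.

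Words of 8 bases were searched in the same way. Of 11991 words of 8 bases found in at least 10 windows, 38 were more frequent at the summits and 0 less frequent (Fisher's exact test), with 812 below an unadjusted p of 0.05, and 21 of the 38 contained CACTG. CACTGAGA was in 39 summit windows and 5 flanks (6.34% and 0.430%, adjusted exact p = 8.59e-10), TACACTGA in 36 and 6 (5.85% and 0.516%, adjusted exact p = 3.82e-08), and CACTGTGC in 38 and 8 (6.18% and 0.688%, adjusted exact p = 6.41e-08). Around 41 sites of CACTGAGA, as in the stretches shown above, the next base was G in 48.8% and A in 46.3%, and the 3 bases after it were A in 75.6%, 90.2% and 87.8%. The base before it was A in 58.5% and G in 34.1%. Most copies of these words in the genome had no peak. Of 4330 copies of CACTGAGA on the arms 110 (2.54%) were within 100 bp of an optimal summit, and of 724 copies in eligible introns 41 (5.66%) were within 100 bp of a near-start intron peak. For CACTG alone these shares were 0.696% and 1.28%.

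The words had a direction relative to the summit, which was not used to find them, since both strands were counted together. For each peak the site nearest to the summit within 150 bp was taken, and it was noted whether the word, read 5′ to 3′, ran toward the summit or away from it. CACTGAGA ran toward the summit in 42 of 49 peaks (85.7%, exact interval 72.8 to 94.1%; two-sided exact binomial test against equal numbers, adjusted p = 1.59e-06). CACTGTGC ran toward it in only 16 of 54 (29.6%, 18.0 to 43.6%, adjusted exact p = 0.00528). The stretches of ImpL2 and CG1943 shown above run toward their summits, which lie 51, 97 and 68 bp past the word, while the stretch of ush is one of the 7 that run away. Of the 21 called words of 8 bases with CACTG, 13 ran toward the summit, in 74.2 to 91.3% of peaks, and 6 ran away from it, with 4.88 to 29.6% toward. The remaining 2 did not pass. These words overlap and share sites, so the counts are not independent. The core word alone did not pass (54.1% of 412 peaks toward the summit, adjusted exact p = 0.114).

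The base next to the core word went with its direction. CACTGA ran toward the summit in 117 of 155 peaks (75.5%, adjusted exact p = 1.18e-09), CACTGC in 61.0% (adjusted exact p = 0.0280) and CACTGG in 61.8% (adjusted exact p = 0.0382), while CACTGT did so in 64 of 194 (33.0%, adjusted exact p = 3.96e-06). By the base before it, ACACTG (70.8%) and GCACTG (71.4%) ran toward the summit, CCACTG away from it (25.2% toward, adjusted exact p = 1.80e-09), and TCACTG did not pass (40 of 100 peaks, adjusted exact p = 0.0569). All 6 of the 8-base words that ran away contained CACTGT, and none of the 13 that ran toward the summit did. Both words that did not pass contained CACTGT too, and they ran toward the summit in 36.4% and 61.1% of peaks. Most of the 6 also contained CCACTG, and none of the 13 did. The 6-base words share sites as well, so the base before and the base after were not told apart. The nearest sites were at a median of 65 bp from the summit for CACTGA and 65.5 bp for CACTGT. At the replicates' own summits CACTGA ran toward the summit in 69.3%, 75.5% and 71.8% of peaks in replicates 1, 2 and 3, or 72.2% ± 3.09, and CACTGT in 35.6%, 32.8% and 31.4%, or 33.3% ± 2.17 (SD, n = 3 each). The replicates, whose summits were placed separately, gave the same directions for CACTGA and CACTGT. At these summits CACTGG passed only in replicate 3 (58.3%, 60.0% and 63.7% in replicates 1, 2 and 3, adjusted exact p = 0.156, 0.0725 and 0.0131). TCACTG passed in replicates 1 and 3 (34.3% and 39.8%, adjusted exact p = 0.00214 and 0.0482).

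**Figure D5:**
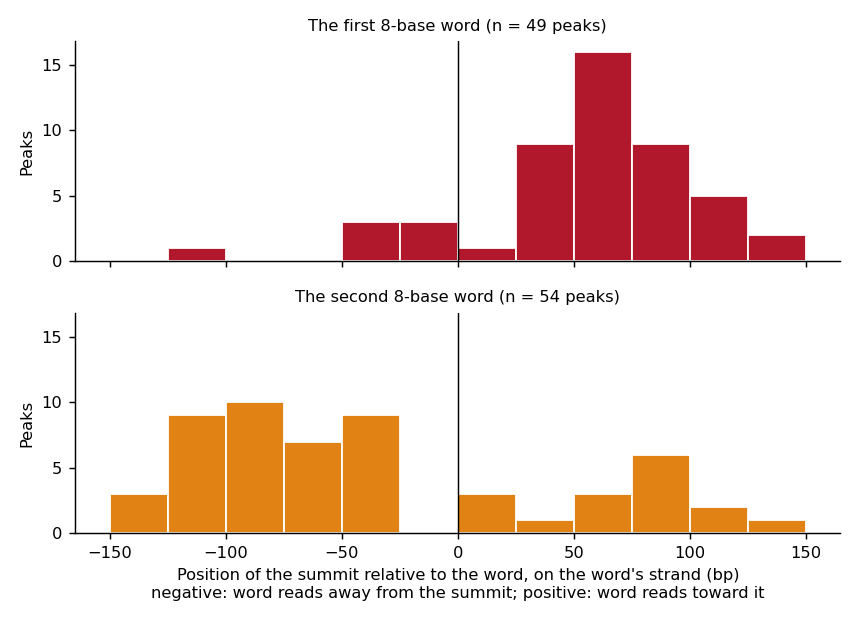
Position of the summit relative to the nearest site of an 8-base word, in bp along the strand of the word (horizontal axis), as numbers of near-start intron peaks in bins of 25 bp (vertical axis), for CACTGAGA (the first word, 49 peaks) and CACTGTGC (the second word, 54 peaks). The first word ran toward the summit in 42 peaks and the second away from it in 38.

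Other classes showed the same directions. CACTGA ran toward the summit in 76.2% of far intron, 81.2% of intergenic and 59.5% of promoter peaks, and CACTGT in 26.8%, 30.8% and 36.7%. In a test of the differences for the 4 words with a following base, adjusted over 12 comparisons, only CACTGA against promoter peaks passed, with 16.0 points more in near-start intron peaks (odds ratio 2.10, adjusted exact p = 0.0186). In the weaker near-start intron regions CACTGAGA ran toward the summit in 66.3% and CACTGTGC in 39.3%.

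Annotated transposable elements lay within 100 bp of 3 summits (0.488%), while 4.75% of the eligible sequence is that close to one. A non-coding TSS lay within 500 bp of 16 summits (2.60%, against 2.04% of eligible sequence), and 8 summits lay in a non-coding exon. These shares were not tested.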

How the data were processed

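ChIP-seq peak lists of 3 biological replicates, which form 1 group, were used. Per the deposited file descriptions, the authors called regions on dm6 in each replicate and in the pooled replicates, against 1 control alignment, and took the optimal set from these lists by irreproducible discovery rate. The sources used here do not give the aligner, the caller, their versions or the threshold. The deposited signal is the authors' value per region, with no stated scale. The deposited q-value, as −log10, was 1.83 to 3.32 for the near-start intron peaks and entered no test. Another deposited column gives each summit as an offset. Chromatin was sonicated, with a size range of 200 to 800 bp, per the labels. Depth is unknown. P-values measure counting over peaks, not the spread between embryos.

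Gene models were those of Ensembl (release 115) for dm6, and sequence came from the RefSeq genome of that build. Shares were compared by two-sided Fisher's exact tests, and positions and word directions by two-sided exact binomial tests, with Benjamini-Hochberg adjustment within each family and a threshold of 0.05. Flanks within 300 bp of another optimal summit were left out, but flanks in exons or at a TSS were kept. Some listed symbols had no match, among them phl, Dl and h, and 1 gene list is not reported here. The motif, word and direction counts were tested on simulated windows. The members and lists were chosen with earlier results of these data known. The word search, the word directions, the comparison of narrow widths and the stretches of 40 bases were added after seeing the data. The planned width comparison, above the median, had almost no peaks to count. The genes named are hosts of the 20 strongest peaks with a top region in every replicate, hosts of up to 3 peaks per list, peaks at the distance limits and genes with 3 or more peaks. Other hosts were named after their values were seen. Alternatives were other summit distances, list lengths, distance limits, windows and flanks, models with TSS and exons of all biotypes except transposable elements, peaks above the median signal, 1 peak per gene, and leaving out each replicate, which kept peaks found in the top lists of both others (394 to 426 near-start intron peaks). Tools were Python 3.11.15 (NumPy 2.4.6, pandas 2.3.3, SciPy 1.17.1) with figures by Matplotlib 3.10.9.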

Additional observations from a re-analysis of the deposited data

How the results depend on the processing

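Of 216 alternative values of 34 results, 174 were counted as unchanged. For a tested difference this means the same direction and the same side of the threshold. The 174 also include counts of motifs and words, which have neither. They include the planned width comparison too, which had almost no peaks to count and could hardly change. The share against weaker regions, the positions at 501 to 1000 bp, after a first exon and inside the gene of the nearest TSS, and both 8-base word directions kept direction and side under every alternative run. So did the core word (28.1 points over flanks, but 8.74 within 50 bp of the summit), except written backwards (-1.66 points). Differences below are near-start intron minus the other class, or minus eligible sequence, in percentage points. Replicate support against promoters (-2.75) was 1.16 with summits within 50 bp, 0.110 with top lists of double length and -5.90 to 0.145 without 1 replicate. Against intergenic peaks (-1.36) it was 1.73 with shorter top lists. Without 1 replicate, signal against promoters ran from -1.48 to 5.06, narrow widths against far intron peaks from 7.06 to 7.91, and a bound promoter from -0.125 to 1.55 against far intron and 4.25 to 5.21 against intergenic peaks. Arms in the weaker regions gave 3.07 for 2R, 1.27 for 3L, 1.64 for 3R and -4.45 for X, and 1 peak per gene gave 1.39 for 3R and 2.02 for X. Without 1 replicate, downstream positions ran from -5.02 to -4.51, 2L from -4.58 to -2.86 and 3L from 0.188 to 0.793. Motifs lower than in flanks numbered 0, but 1 with windows within 50 bp of the summit and 2 with flanks at 500 bp, and 2 were higher when written backwards. Motifs lower than in another class numbered 5, but 3 with these shorter windows or without peaks within 1000 bp of a TSS, 2 above the median signal, 0 written backwards (with 2 higher) and 1 to 3 without 1 replicate. Words of 6 bases numbered 96 higher and 76 lower, but 158 and 135 with flanks at 500 bp, 37 and 19 above the median signal, 35 and 16 with peaks within 1000 bp of a TSS left out, and 42 to 73 and 20 to 58 without 1 replicate. Several of these sets hold fewer peaks, and otherwise the cause was not tested. No paired analysis was possible because the replicates form 1 group. Depth is unknown, so what it limits could not be measured.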
